A study of Mus musculus with 6 samples.

Results

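The mRNA levels of 8 genes of cholesterol synthesis and its control were compared between Zip13-KO and wild-type (WT) mice in inguinal white adipose tissue (iWAT). They were taken by name, with earlier results of these data known but with no threshold on measured values, as listed sterol genes whose array probes carry a RefSeq transcript of the gene: Srebf2, Insig1, Hmgcs1, Idi1, Fdps, Sqle, Lss and Cyp51. All 8 were on the array and were among the 15306 genes tested, of 21368 genes with a named probe. Zip13 (Slc39a13) encodes a zinc transporter of intracellular membranes, and the arrays compared the iWAT transcriptome of mice with and without it. There were 3 WT and 3 Zip13-KO arrays, each with total RNA of iWAT from 10-week-old mice, the WT mice being littermates of the Zip13-KO mice. In the Zip13-KO mice exons 6 to 8 of Zip13 were replaced by a Neo cassette in R1 embryonic stem cells, so the gene was altered in every tissue and not in fat alone. Mice of both genotypes had been backcrossed to C57BL/6J for at least 7 generations and ate powdered food, because Zip13-KO mice have missing teeth. Standard and high-fat food are both described for the colony, and neither the food of the mice on the arrays nor their sex is given in the sources used here. Nothing in those sources says whether each array held RNA of 1 mouse, so the p-values measure the spread between these 6 samples. In whole tissue, fewer cells of a type and less RNA per cell cannot be told apart.

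Cholesterol is built from acetyl-CoA through the mevalonate pathway to farnesyl diphosphate, then through squalene and lanosterol. Sterol regulatory element-binding protein 2 (SREBP2, from Srebf2) is the main transcription factor of that pathway. It is made as a membrane protein of the endoplasmic reticulum, where INSIG proteins retain it with its escort SCAP while sterols are plentiful. When sterols fall, the complex moves to the Golgi, where proteases release the part that enters the nucleus and binds sterol regulatory elements (SREs) near its target genes, usually beside NF-Y and Sp1 sites. White adipose tissue holds much of the body's free cholesterol, mostly in the membrane and lipid droplet of the fat cell, and takes up more of it from lipoproteins than it makes.

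The start regions of 6 of the 8 genes were in the RefSeq promoter table used here (GRCm38.p6, 250 bases before to 50 after the start). Sqle and Fdps were not matched. The SRE core, searched as TCACNCCA on both strands, was found in 2 of the 6 promoters, against 4.36% of the 32851 promoters in the table and 3.83% of the promoters of genes tested. The NF-Y box CCAAT was found in 6 of 6, against 37.4% of all promoters and 37.2% of those of genes tested. The Sp1 box GGGCGG was found in 6 of 6, against 35.7% and 56.9%. No SRE core overlapped a CCAAT box. The 3 promoters printed here are those of the regulator itself, of the earliest enzyme among the 8 and of Insig1, the gene of the 8 with the largest rise, each 5′ to 3′ on the plus strand, with SRE cores and CCAAT boxes (or ATTGG, the same box on the other strand) in capitals. They lie at chr15:82147019-82147318 (Srebf2), chr13:119690101-119690400 (Hmgcs1) and chr5:28071162-28071461 (Insig1).
Srebf2: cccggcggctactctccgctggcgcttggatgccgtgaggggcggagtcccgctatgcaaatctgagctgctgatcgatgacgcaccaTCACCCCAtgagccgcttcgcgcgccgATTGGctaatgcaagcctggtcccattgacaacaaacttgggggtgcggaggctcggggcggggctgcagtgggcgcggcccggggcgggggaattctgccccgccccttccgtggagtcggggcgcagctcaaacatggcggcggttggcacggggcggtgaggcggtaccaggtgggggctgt
Hmgcs1: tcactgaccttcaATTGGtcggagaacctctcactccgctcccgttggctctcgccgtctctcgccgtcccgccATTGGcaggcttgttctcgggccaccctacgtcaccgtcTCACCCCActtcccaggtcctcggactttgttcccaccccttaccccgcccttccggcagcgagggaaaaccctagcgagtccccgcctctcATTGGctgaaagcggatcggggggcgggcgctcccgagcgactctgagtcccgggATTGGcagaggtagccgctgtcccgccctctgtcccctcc
Insig1: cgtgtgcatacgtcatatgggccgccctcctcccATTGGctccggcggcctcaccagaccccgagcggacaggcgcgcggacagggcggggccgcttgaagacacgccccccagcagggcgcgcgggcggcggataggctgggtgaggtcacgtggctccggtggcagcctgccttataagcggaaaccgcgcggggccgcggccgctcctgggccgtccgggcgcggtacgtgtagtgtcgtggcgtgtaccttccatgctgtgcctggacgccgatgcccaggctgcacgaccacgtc
The SRE core began at position -162 from the start in Srebf2 and at -137 in Hmgcs1, with the letters TCACCCCA in both. None was found in the Insig1 window, which says only that those letters are not in this window.

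Of the 8 genes, 7 had a higher mean in Zip13-KO iWAT, and 2 of them passed the test. Insig1 was 2.90-fold and Hmgcs1 1.93-fold higher, and no gene of the 8 was called lower, each being taken by its brightest kept probe. By its second kept probe, Srebf2 was 2.94-fold lower with no overlap (limma adjusted p = 0.00976 over the kept probes). A gene was called when its adjusted p in limma (Benjamini-Hochberg over the 15306 genes) was under 0.05 and its change was over 1.5-fold (0.58 on the log2 scale). Of all genes tested, 10.3% were called higher and 8.38% lower (18.7% in all), and 34.5% had an adjusted p under 0.05 at any fold, as did 2 of the 8. The log2 fold change (Zip13-KO minus WT) had a median of 1.01 over the 8 genes and ran from -0.13 for Srebf2 to 1.53 for Insig1, while the median over all genes tested was close to 0. At an unadjusted p under 0.05, 5 of the 8 were higher and 0 lower, against 25.3% and 21.8% of all genes tested. The 3 Zip13-KO arrays lay above the 3 WT arrays for 4 of the 8 genes (Insig1, Hmgcs1, Idi1 and Lss), against 29.2% of all genes tested, and below them for none, against 25.9% (55.1% in either direction). Values throughout are log2 intensities after quantile normalization of the 6 arrays.

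**Figure D1:**
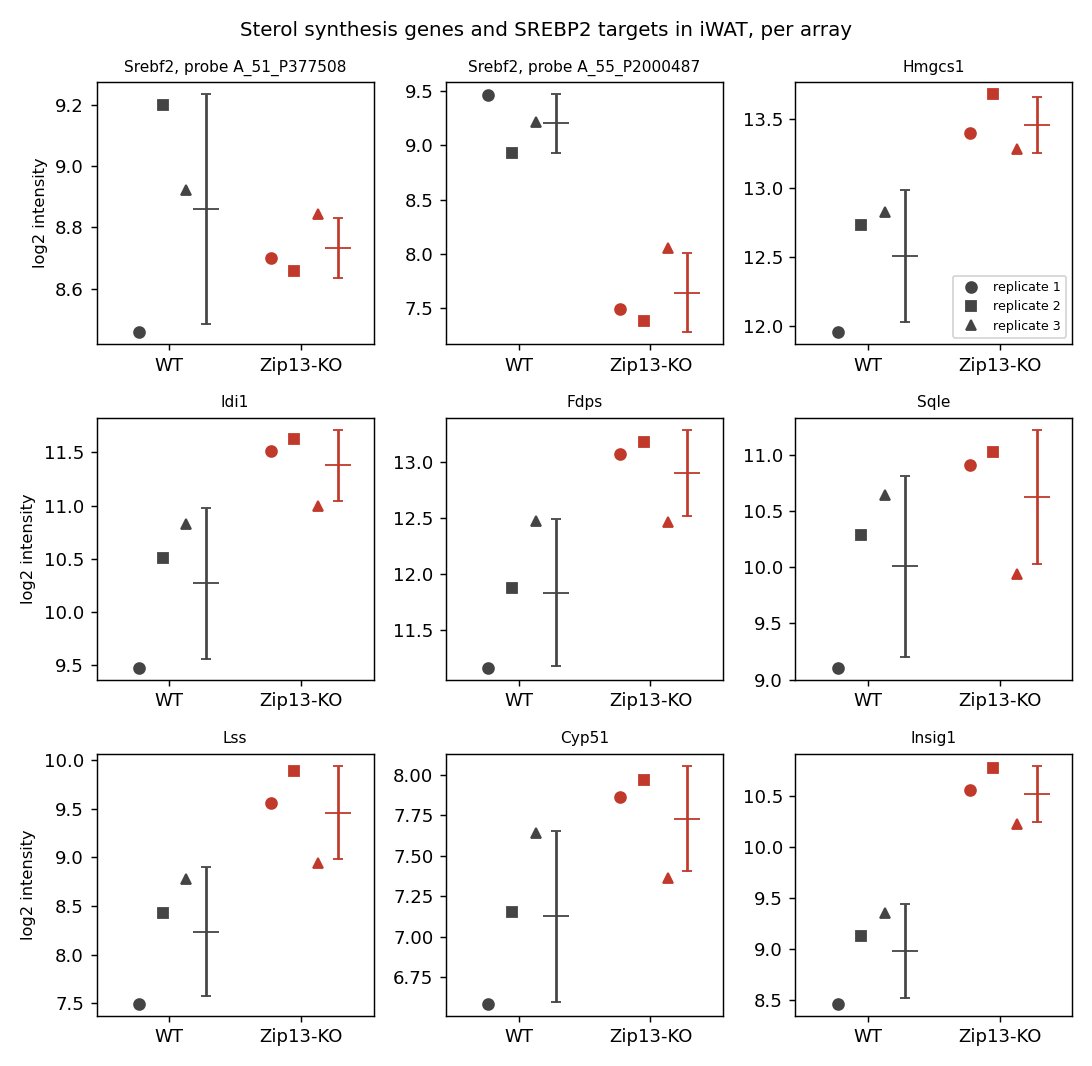
Log2 intensity (vertical axis, quantile normalized) of each of the 8 sterol genes on each of the 3 WT and 3 Zip13-KO arrays, with 1 point per array and a bar for each genotype's mean and SD; Srebf2 has a panel for each of its probes, and the axes do not start at 0. The Zip13-KO points of Insig1, Hmgcs1, Idi1 and Lss lie above all WT points, those of the second Srebf2 probe lie below them, and the other panels overlap.

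Slc39a13, the targeted gene, measured 11.29, 10.87 and 10.72 on the WT arrays and 6.76, 6.66 and 6.47 on the Zip13-KO arrays, a log2 difference of -4.33 (SE 0.17, limma adjusted p = 0.00128). It stayed well above background on every Zip13-KO array, and the place of its probe relative to the deleted exons is not given in the sources used here. All 6 arrays were on 1 slide and came from 1 scan. Between 62.5% and 63.2% of probes were well above background on the WT arrays and between 58.8% and 60.4% on the Zip13-KO arrays, and none of the spots was saturated. With 3 arrays a genotype, the number of arrays limits the precision. On the slide, Zip13-KO replicate 1 shared a column with all WT arrays, and the other 2 Zip13-KO replicates had the second column to themselves.

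Srebf2, the gene of the regulator, gave different answers with different probes. With the probe that was brighter on average it measured 8.46, 9.20 and 8.92 in WT and 8.70, 8.66 and 8.84 in Zip13-KO. The groups overlapped, and the log2 difference of -0.13 (SE 0.19, 95% interval -0.59 to 0.34, adjusted p = 0.631) did not pass the test. A second probe with the same RefSeq transcript measured 9.46, 8.92 and 9.22 in WT and 7.49, 7.38 and 8.06 in Zip13-KO. With it the Zip13-KO values were all below the WT values, by 1.56 on the log2 scale in the mean, or 2.94-fold (SE 0.22, 95% interval -2.09 to -1.02, limma adjusted p = 0.00976 over the 33038 kept probes). The change between genotypes differed between the probes by -1.43, with a two-sided exact permutation p of 0.1, the smallest that 3 arrays against 3 can give. Averaging the probes gave a log2 difference of -0.84 (adjusted p = 0.00812), which was called lower. The deposited files hold no probe sequences, so where each probe lies on the transcript is not given here, and the level of Srebf2 RNA in these samples depends on the probe taken.

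Insig1 had the largest rise of the 8, though the fall at the second Srebf2 probe was of about the same size. It encodes the membrane protein that retains SCAP and the SREBPs in the endoplasmic reticulum, and it is itself a target of the SREBPs. Its values were 8.47, 9.13 and 9.35 in WT (8.98 ± 0.46, SD, n = 3) and 10.56, 10.77 and 10.22 in Zip13-KO (10.52 ± 0.28, SD, n = 3). The lowest Zip13-KO array was above the highest WT array, and the log2 difference of 1.53 (SE 0.26, 95% interval 0.91 to 2.16) had an adjusted p of 0.010. With any 1 array left out it stayed between 1.28 and 1.72 and was called.

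Of 7 further genes of SREBP processing and regulation, 1 was called higher (Srebf1) and 0 lower (limma, 3 higher and 0 lower at an unadjusted p under 0.05, where 25.3% of all genes tested were higher and 21.8% lower). The shares called of all genes tested were 10.3% higher and 8.38% lower. Srebf1, which encodes the SREBP mostly tied to fatty acid synthesis, measured 8.49, 10.09 and 9.40 in WT and 10.50, 10.70 and 10.66 in Zip13-KO, a log2 difference of 1.29 (SE 0.38, adjusted p = 0.0443). Its WT arrays were spread widely, and it was called in 2 of the 6 fits that left out 1 array, failing without WT replicate 3 and without each Zip13-KO array. Insig2, the second INSIG gene, was 0.37 higher on the log2 scale (adjusted p = 0.0387), under the fold threshold. Another kept Insig2 probe gave 0.20, with overlap (limma adjusted p = 0.182 over the kept probes). Differences for the escort gene Scap (0.15), the processing proteases Mbtps1 (-0.05) and Mbtps2 (-0.20), and the ligase gene Rnf139 (-0.06) had adjusted p-values from 0.173 to 0.671. Mbtps1 turned to 0.056 with scaling to the 75th percentile in place of quantiles.

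The enzymes before squalene were represented by Hmgcs1, Idi1 and Fdps, and 1 of these 3 passed the test. Hmgcs1, which makes HMG-CoA in the cytosol, measured 11.96, 12.73 and 12.83 in WT (12.51 ± 0.48, SD, n = 3) and 13.40, 13.68 and 13.29 in Zip13-KO (13.46 ± 0.20, SD, n = 3). All Zip13-KO arrays lay above WT, and the log2 difference was 0.95 (SE 0.25, 95% interval 0.34 to 1.56, adjusted p = 0.0316). It was no longer called when any 1 Zip13-KO array was left out (0.84 to 1.03, adjusted p from 0.0626 to 0.0986). A second Hmgcs1 probe was not well above background on any array and was not used.

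Idi1, the isomerase that turns isopentenyl into dimethylallyl diphosphate, measured 9.48, 10.51 and 10.82 in WT and 11.51, 11.62 and 10.9996 in Zip13-KO. The groups did not overlap, yet the log2 difference of 1.11 (SE 0.37, 95% interval 0.21 to 2.004) missed the threshold with an adjusted p of 0.0609. Fdps, which joins these units into farnesyl diphosphate, measured 11.16, 11.87 and 12.47 in WT and 13.07, 13.17 and 12.47 in Zip13-KO. Its log2 difference was 1.07 (SE 0.36, 95% interval 0.20 to 1.94, adjusted p = 0.0626). Zip13-KO replicate 3 and WT replicate 3 met at the same level, and the other 2 Zip13-KO arrays were above every WT array.

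Of the enzymes after squalene, Lss had the largest difference and none was called. Lss, the cyclase that forms lanosterol, measured 7.50, 8.43 and 8.78 in WT and 9.56, 9.89 and 8.94 in Zip13-KO. All Zip13-KO arrays were above WT, and the log2 difference was 1.23 (SE 0.39, 95% interval 0.29 to 2.17, adjusted p = 0.0527). Sqle, the squalene epoxidase and a rate-limiting step of the pathway, measured 9.10, 10.29 and 10.64 in WT and 10.91, 11.03 and 9.94 in Zip13-KO. The lowest Zip13-KO array fell below 2 of the 3 WT arrays, and the log2 difference of 0.62 had an interval from -0.53 to 1.76 (SE 0.47, adjusted p = 0.340). Cyp51, the lanosterol demethylase, measured 6.59, 7.15 and 7.64 in WT and 7.86, 7.97 and 7.36 in Zip13-KO, with overlap and a log2 difference of 0.60 (SE 0.30, 95% interval -0.12 to 1.32, adjusted p = 0.157). Sqle and Cyp51 were called under none of the 18 other settings run for each gene, and their intervals leave room for no change as well as for a more than 1.5-fold rise.

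**Figure D2:**
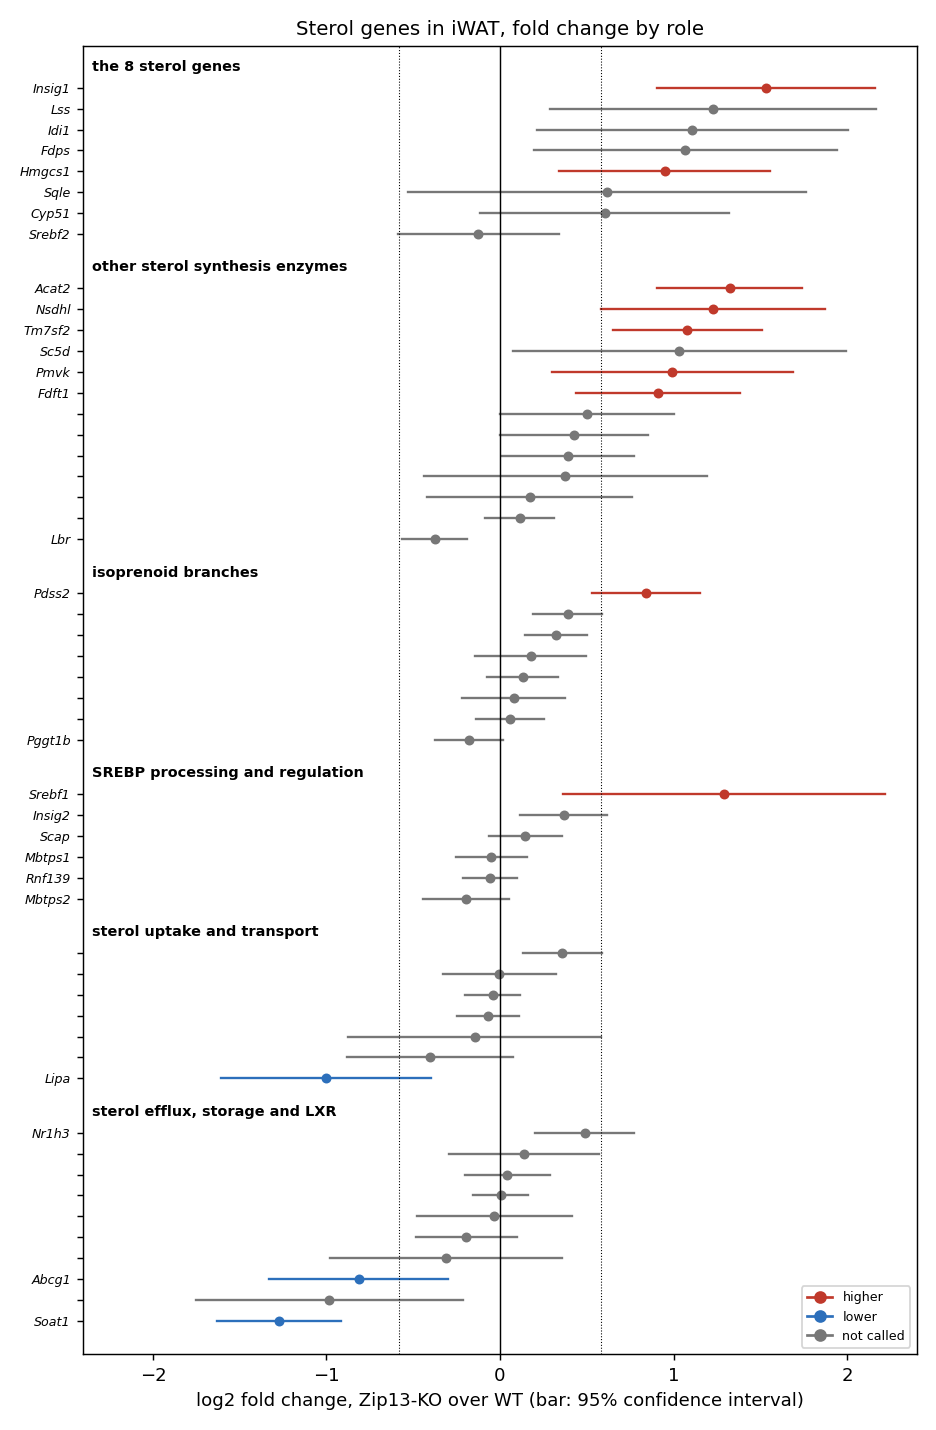
Log2 fold change (horizontal axis, Zip13-KO minus WT) with its 95% interval for the 8 sterol genes, each by its brighter probe, and other listed genes of sterol synthesis, control, uptake and efflux (names only for genes named by rule or in the text), with dotted lines at the fold threshold of 0.58 either way. Among the 8, Insig1 and Hmgcs1 are called (coloured), and the intervals of Lss, Idi1 and Fdps lie above 0 without a call.

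How many of the 8 genes were called depended on the settings, and the added genes were always Lss, Idi1 and Fdps or some of them, apart from Srebf2 where its probes were averaged. There were 5 called genes (Insig1, Hmgcs1, Lss, Idi1 and Fdps) in the table of log2 values that the authors deposited, which is not corrected for background. There the log2 differences of Lss, Idi1 and Fdps were 1.08, 1.14 and 1.03, with adjusted p-values of 0.0378, 0.0473 and 0.0493. The same 5 genes were called without WT replicate 3, and only Insig1 without any 1 of the Zip13-KO arrays. Within the first column of the slide, which held the WT arrays and Zip13-KO replicate 1, the differences were about as large: 1.58 for Insig1, 0.89 for Hmgcs1, 1.32 for Lss, 1.24 for Idi1, 1.23 for Fdps, 0.90 for Sqle, 0.73 for Cyp51 and -0.16 for Srebf2. With the column as a covariate none of the 8 was called, and only 7 of the 15306 genes were called, all lower.

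**Figure D3:**
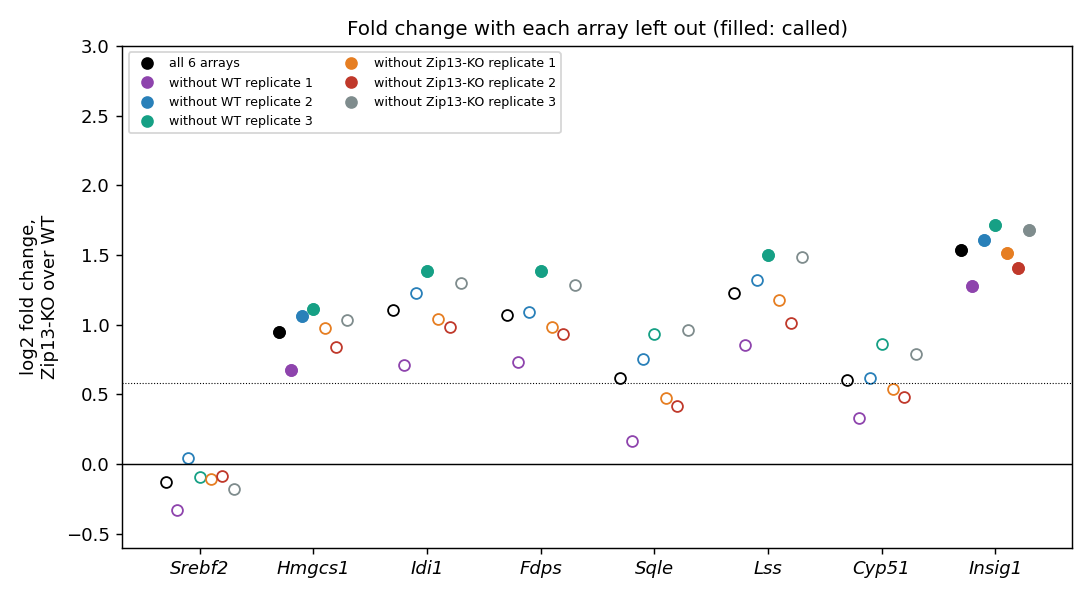
Log2 fold change (vertical axis, Zip13-KO minus WT) of each of the 8 sterol genes with all 6 arrays and with each array left out in turn, filled where the gene was called, with a dotted line at the fold threshold of 0.58. Insig1 is called in every fit, Hmgcs1 only while all 3 Zip13-KO arrays are in, and without WT replicate 1 every value is lower than with all 6 arrays.

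Most of the 8 genes shared one order of the arrays within each genotype. WT replicate 1 was the lowest WT array for 8 of 8 genes, against 41.4% of all genes tested, and WT replicate 3 the highest for 7, against 36.4%. Among the Zip13-KO arrays, replicate 2 was the highest for 7 genes (27.5% of all genes) and replicate 3 the lowest for 7 (36.0%). The exception was Srebf2, taken by its brighter probe, in each of these 3 counts. By its second probe, WT replicate 1 was the highest WT array (9.46) and WT replicate 2 the lowest (8.92). The genes share the same 6 RNA samples, so these counts describe the arrays and are no repeated measurement.

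The spread within WT was wide for these genes. Their WT SDs ran from 0.37 (Srebf2) to 0.80 (Sqle), where the median gene had 0.156, and each was larger than the WT SD of at least 85.3% of genes tested. The Zip13-KO SDs ran from 0.10 (Srebf2) to 0.60 (Sqle), where the median gene had 0.0999. Sqle spanned 1.54 on the log2 scale within WT and 1.09 within Zip13-KO, more than its difference between the genotypes. Insig1 spanned 0.89 and 0.55, less than its difference of 1.53. Without WT replicate 1, Hmgcs1 remained called at 0.67 (adjusted p = 0.0213) and Insig1 at 1.28 (adjusted p = 0.0106), while Sqle dropped to 0.16 and Cyp51 to 0.33. Idi1 dropped to 0.71, Fdps to 0.73 and Lss to 0.86, none of them called.

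The genes whose profile over the 6 arrays was most like the mean profile of the 8 were found by the root mean square distance on the log2 scale, after each gene was centred on its own mean. They were Lactb2 (0.0685), Pmvk (0.0739), Lctl (0.0773), Trp53inp2 (0.0787) and Kcnj14 (0.10). One of these, Pmvk, is a sterol synthesis enzyme, phosphomevalonate kinase. The 8 genes' own distances to their mean profile ran from 0.121 for Hmgcs1 through 0.143 for Idi1, 0.146 for Fdps and 0.159 for Cyp51 to 0.338 for Insig1 and 0.585 for Srebf2. The nearest genes were picked as the smallest distances of all other genes tested, so their smaller values follow from the choice. Srebf2 was the gene least like the mean of the 8.

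Some further enzymes of the pathway were also called higher in Zip13-KO. Of 15 listed, all tested, 13 had a log2 difference above 0 (median 0.50, lowest -0.38, highest 1.32), and 6 were called higher and 0 lower (limma, 10 higher and 1 lower at an unadjusted p under 0.05, against 25.3% and 21.8% of all genes tested). Among all genes tested, 10.3% were called higher and 8.38% lower. Acat2, which makes acetoacetyl-CoA at the head of the pathway, measured 9.22, 9.58 and 9.88 in WT and 10.84, 10.99 and 10.82 in Zip13-KO. Those groups did not overlap, and the difference was 1.32 (SE 0.17, adjusted p = 0.00633). Nsdhl and Tm7sf2, which act on lanosterol-derived sterols, were 1.23 and 1.08 higher (adjusted p = 0.0182 and 0.00943). Pmvk was 0.99 higher (adjusted p = 0.0411) and Fdft1, the squalene synthase, 0.91 higher (adjusted p = 0.0178). Acat2 and Tm7sf2 were called with any 1 array left out, whereas Nsdhl and Fdft1 were lost without Zip13-KO replicate 1 or 2, and Pmvk was called only in the fit without WT replicate 3. A second Fdft1 probe pointed the other way, its Zip13-KO signals all being not well above background. Its difference did not pass the test (limma adjusted p = 0.0936 over the kept probes). The WT values were 5.60, 4.39 and 4.34. Their mean was 1.83-fold higher with dim Zip13-KO signals raised to the lowest signal well above background.

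Lbr, a sterol reductase that is also an anchor of chromatin at the nuclear envelope, was 0.38 lower with no overlap (log2 difference -0.38, SE 0.08, adjusted p = 0.0157), under the fold threshold. Its other kept probe gave -0.30, with overlap (limma adjusted p = 0.200 over the kept probes). Sc5d was 1.03 higher with no overlap and an adjusted p of 0.0874. Together with the 6 enzymes among the 8 genes, 19 of 21 synthesis enzymes had a difference above 0, 7 were called higher and 0 lower, and the median was 0.89. Among all genes tested, 49.9% were above 0, 10.3% were called higher and 8.38% were called lower.

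Other branches leave the pathway at farnesyl diphosphate. Of 8 genes of these branches, 7 had a log2 difference above 0, with a median of 0.15, and 1 was called higher and 0 lower (limma, 3 higher and 0 lower at an unadjusted p under 0.05, against 25.3% and 21.8% of all genes tested). The shares called of all genes tested were 10.3% higher and 8.38% lower. The 1 gene called was Pdss2, a subunit of the enzyme that makes the ubiquinone side chain, at 0.84 (SE 0.13, adjusted p = 0.00816). The lowest of the list was Pggt1b, a subunit of the enzyme that attaches geranylgeranyl groups to proteins, at -0.18 (adjusted p = 0.129).

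Genes of sterol uptake and transport were called about as often as all genes tested. Of 9 listed, 8 were tested, with a median of -0.06. In limma 1 was called higher and 1 lower, near the 10.3% and 8.38% of all genes tested. Lipa, the lysosomal lipase that frees cholesterol from its esters, was lower by a log2 difference of -1.004 (SE 0.25, adjusted p = 0.0268) and was lost without any 1 of the Zip13-KO arrays.

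Of 10 genes of sterol efflux, storage and the sterol sensor LXR, 2 were called lower and 0 higher, with a median of -0.11. Of all genes tested, 8.38% were called lower and 10.3% higher. At an unadjusted p under 0.05 in limma 1 of the 10 was higher and 3 were lower, against 25.3% and 21.8% of all genes tested. Soat1, which esterifies cholesterol for storage, differed by -1.27 (SE 0.15, adjusted p = 0.00548) and was called with any 1 array left out. Abcg1, a sterol exporter, differed by -0.81 (SE 0.21, adjusted p = 0.0303) and was called in 1 of the 6 such fits. The highest of the list was Nr1h3, which encodes LXR-alpha, at 0.49 (adjusted p = 0.0250), under the fold threshold.

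Markers of cell types differed between the same samples. Among all genes tested, 49.9% were above 0, 10.3% were called higher and 8.38% were called lower. All 10 adipocyte markers were above 0 in Zip13-KO, with a median log2 difference of 0.74, and 5 were called higher: Aqp7 (1.17), Pparg (1.13), Plin1 (0.83), Lipe (0.77) and Cd36 (0.71). With each array left out, 1 to 7 of the 10 were called, the 1 being Aqp7, without Zip13-KO replicate 1, and the 7 without WT replicate 2. Their summed level, as log2 of summed intensity, ran from 18.52 to 18.98 in WT and from 19.20 to 19.27 in Zip13-KO. All 8 brown and beige adipocyte markers were called higher, from Prdm16 (0.93) to Ucp1, the uncoupling protein of thermogenesis (5.16), with summed levels from 15.14 to 15.82 in WT and from 17.30 to 17.94 in Zip13-KO. One of these, Elovl3, was well above background on 2 of the 3 WT arrays and passed the filter only through its Zip13-KO arrays. Of 12 macrophage markers none was above 0 and 9 were called lower, with Fcgr1 (-2.57) and Cd68 (-1.87) at one end and Itgam (-0.17, not called) at the other, and summed levels from 16.67 to 17.39 in WT and from 15.56 to 15.99 in Zip13-KO. Of 10 stromal progenitor and fibroblast markers 4 were called lower, led by Ly6a (-1.37), against 8 without WT replicate 3, 0 without Zip13-KO replicate 1 or 2 and 2 without any 1 of the other arrays, with summed levels from 17.19 to 18.26 in WT and from 16.87 to 17.22 in Zip13-KO. Of 8 endothelial markers 3 were called higher, led by Flt1 (0.92), with summed levels from 13.33 to 13.54 in WT and from 13.98 to 14.01 in Zip13-KO. With each array left out, 7 or 8 brown and beige markers were called higher, 7 to 9 macrophage markers lower and 2 or 3 endothelial markers higher. The part of these shifts in the values of the 8 sterol genes was not tested.

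The remaining marker lists held no called gene in limma with all 6 arrays. Of 10 skeletal muscle markers 9 had a log2 difference above 0, with a median of 0.73, from Ryr1 (-0.62) to Ckm (1.15). At an unadjusted p under 0.05 in limma 0 were higher and 1 was lower (Ryr1), against 25.3% and 21.8% of all genes tested. Their summed levels ran from 10.90 to 12.10 in WT and from 11.35 to 13.24 in Zip13-KO, where replicate 3 was the highest. Of 9 lymph node markers tested of 10 listed 7 were lower at that level, against 21.8% of all genes tested. Their summed levels ran from 16.29 to 16.53 in WT and from 15.81 to 15.99 in Zip13-KO. Of 7 epithelial markers tested of 10 listed 1 was higher at that level, against 25.3% of all genes tested. Their summed levels ran from 7.69 to 9.25 in WT and from 7.70 to 9.32 in Zip13-KO, and Krt8, Cldn4 and Elf5 were too dim to be tested.

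The level of these lists also varied among the arrays of a genotype. The median of the 8 sterol genes, relative to each gene's WT mean, was -0.61, 0.21 and 0.53 on WT replicates 1, 2 and 3 and 1.07, 1.26 and 0.67 on the Zip13-KO replicates. The macrophage markers ran the other way within WT, at 0.42, -0.07 and -0.26, and lay at -1.38, -1.59 and -0.98 in Zip13-KO. The stromal markers stood at 0.45, -0.02 and -0.43 in WT and at -0.67, -0.80 and -0.54 in Zip13-KO. The adipocyte markers stood at -0.39, 0.20 and 0.18 in WT and at 0.80, 0.65 and 0.74 in Zip13-KO. Within WT the endothelial markers stood at -0.10, 0.04 and 0.12, in the order of the sterol genes. In Zip13-KO they stood at 0.50, 0.39 and 0.52, in the reverse of that order. The brown and beige markers stood at 0.09, -0.20 and 0.25 in WT and at 1.82, 2.65 and 2.31 in Zip13-KO, in another order in each genotype. WT replicate 1, the array with the lowest sterol gene values, had the highest macrophage and stromal and the lowest adipocyte marker medians among the WT arrays. Zip13-KO replicate 3, the lowest of the Zip13-KO arrays for 7 of the 8 genes, had the highest macrophage median of its genotype. The adipocyte medians went otherwise in Zip13-KO, where replicate 2, the highest for 7 of the 8 genes, had the lowest (0.65). The 6 arrays are few, and whether these levels are tied to the sterol genes was not tested.

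**Figure D4:**
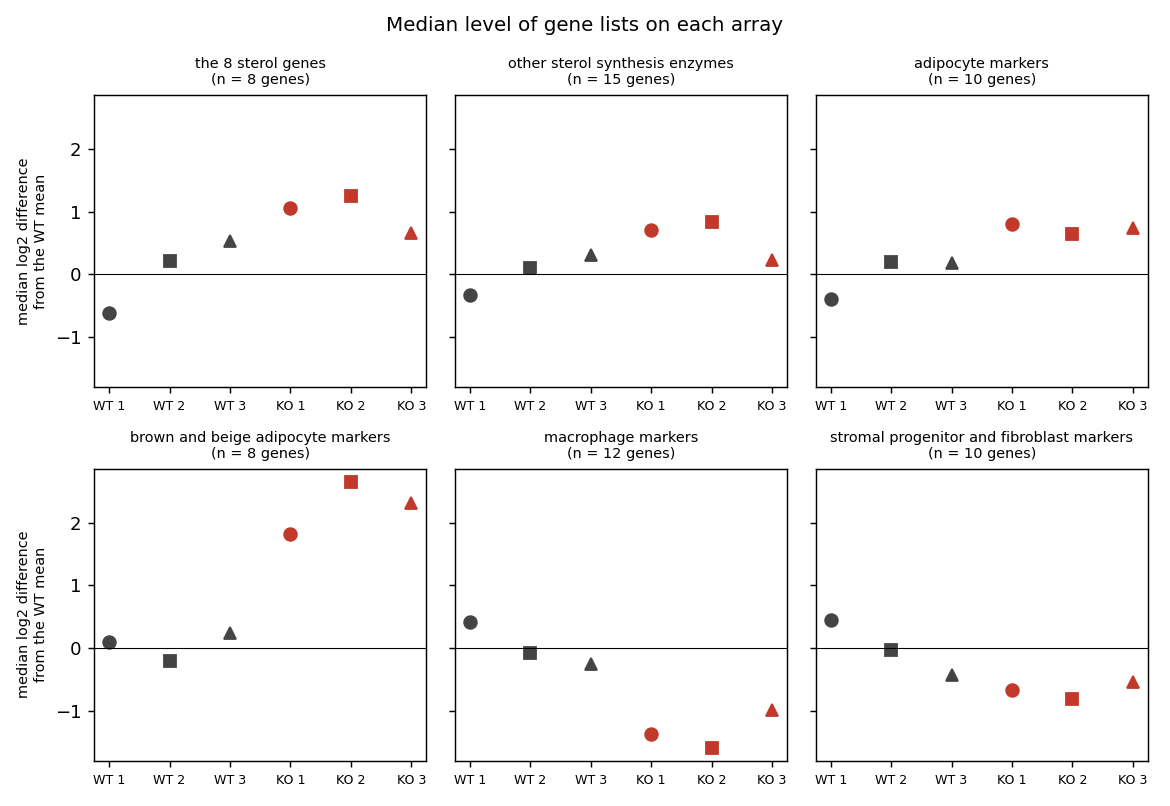
Median log2 level of each gene list on each array, relative to each gene's WT mean (vertical axis), with 1 panel per list and 1 point per WT or Zip13-KO (KO) array. The 8 sterol genes lie at -0.61 to 0.53 in WT and 0.67 to 1.26 in Zip13-KO, and the macrophage markers at -0.26 to 0.42 in WT and -1.59 to -0.98 in Zip13-KO.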

How the data were processed

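The authors hybridised cyanine-3-labelled total RNA of iWAT to 6 Agilent mouse expression arrays in the 1-colour assay and deposited the output of the scanner software Feature Extraction 11.5.1.1, whose processed signal is an intensity corrected for background and not normalized between arrays. They also deposited a table of log2 values, quantile normalized, whose ranks match the uncorrected median signal on every array. It served as an alternative.

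Control and outlier spots were left out, spots of a probe averaged, and log2 processed signals quantile normalized. A probe was kept if well above background on the 3 arrays of at least 1 genotype (33046 of 55681 probes). Probes were named by matching their RefSeq accession, without version, to GRCm38.p6 (28331 matched), and the kept probe brightest on average stood for its gene. Probe-level fits used the 33038 kept probes without a missing value. limma 3.58.1 in R 4.3.3 was fitted with genotype as the only term, and the scripts were tested on simulated data. In place of the methods' combined test, whose details are not given in full, limma was used. The methods' t-test was an alternative.

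The 8 genes and all lists were chosen with earlier results of these data known. Genes were named by rule: the 8, the targeted gene, all SREBP control genes, from each other list up to 5 called genes per direction and the highest and lowest, and the 5 nearest profiles. Not all of those were printed. Sc5d lies outside the rule and was named after its values were seen. Single-gene values of some listed genes are not reported here, though the lists' counts include them.

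The same-numbered WT and Zip13-KO arrays correlated at -0.02, 0.04 and -0.08 in their deviations from the group means, so the numbers were not taken as pairs. With 1 slide and 1 scan, neither could enter as a block. Alternatives were 75th percentile scaling, background correction by normexp (offset 50) on the median signal or none, other probe filters and probe rules, a trended robust prior, other thresholds, the replicate number and the slide column as covariates, and leaving out each array. Columns of the authors' own comparisons were not used.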

Additional observations from a re-analysis of the deposited data

How the results depend on the processing

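Of the 8 sterol genes, 2 were called higher and 0 lower, and the first count was 5 with normexp, with no background correction and in the deposited table, 4 with a trended robust prior, 1 with no filter on dim probes, 1 with the methods' t-test after Benjamini-Hochberg adjustment, 0 with the slide column as a covariate and 0 at an adjusted p under 0.01. It ranged from 1 to 5 when each array was left out (5 without WT replicate 3 and 1 without each Zip13-KO array). The fit reported above called 1576 of all 15306 genes higher. That number was 1156 with normexp, 1263 with no background correction and 1259 in the deposited table. The robust prior gave 1597, the adjusted t-test 1007, the slide column 0 and the stricter threshold 707. With no filter it was 1376 of 21365 genes. Leaving out 1 Zip13-KO array gave 961 to 1291, and leaving out WT replicate 3 gave 1632. Insig1 was called in 17 of the 18 settings run for each gene, the exception being the slide column (1.58, adjusted p = 0.0835), and its adjusted p of 0.010 lies just above the stricter threshold. One gene, Srebf2, was called lower with the mean of kept probes, and none when each array was left out or by the methods' t-test. Of the 15 other enzymes, 6 were called higher, against 2 with the adjusted t-test, 0 with the slide column, 2 at an adjusted p under 0.01 and from 2 to 6 when each array was left out, and 1 (Lbr) was lower with no fold threshold. The cause of these moves was not tested.

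With the replicate number as a block, although the numbers do not pair the samples, 1 of the 8 genes (Insig1, adjusted p = 0.0359) and 2 of the 15 other enzymes were called higher. Hmgcs1 then had a limma adjusted p of 0.0502, and 1278 of all 15306 genes were called higher.

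Directions that turned were those of differences not called, except Fdft1 (-0.013 with the mean of kept probes). With each array left out, Srebf2 ranged from -0.33 to 0.042 (without WT replicate 2), Mbtps1 from -0.085 to 0.015 (without WT replicate 1) and the marker Cr2 from -0.14 to 0.094 (without Zip13-KO replicate 3, and above 0 also without WT replicate 3). With 75th percentile scaling Mbtps1 came to 0.056 and Cr2 to 0.046, and with the slide column Cr2 came to 0.13 and the marker Cdh1 to 0.035. For the 8 genes, 119 of 144 single values kept both direction and side of the threshold, 16 passed it newly, 8 no longer passed and 1 turned. The 8 genes were well above background on all 6 arrays. Limits on them include the number of arrays, the wide spread within WT and the slide column.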
